A study of Mus musculus with 6 samples.

Results

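The replication-dependent histone genes encode the core histones H2A, H2B, H3 and H4 and the linker histone H1. They were taken as the protein-coding genes of the GENCODE vM21 annotation (mm10) whose symbol starts with Hist1h, Hist2h, Hist3h or Hist4, which gave 67 of 22028 protein-coding genes. Of these, 54 lie in the Hist1 cluster on chromosome 13, 10 in Hist2 on chromosome 3, 2 in Hist3 on chromosome 11 and 1, Hist4h4, on chromosome 6. By type they comprise 6 H1, 18 H2A, 18 H2B, 12 H3 and 13 H4 genes. They were set against H2afz, H2afx, H3f3a and H3f3b, 4 genes of histone variants whose symbols fall outside this rule.

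Dividing cells make most of their histones in S phase, when newly replicated DNA is packaged into nucleosomes. Transcription of the clustered histone genes takes place in the histone locus body, a nuclear structure organised by the coactivator NPAT, a substrate of cyclin E and CDK2. The mRNAs end in a stem-loop in place of a poly(A) tail, whereas variant histones such as H2A.Z and H3.3 are made from ordinary polyadenylated mRNAs throughout the cell cycle. CDK6 is a G1 kinase that associates with chromatin through partner proteins, since it has no DNA-binding domain.

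The cells were BCR::ABL1+ murine Pre/Pro-B-cell lines without endogenous Cdk6 (Cdk6-/-), in which an HA-tagged CDK6 was overexpressed. The tagged protein was either wildtype (CDK6-WT) or carried the K43M exchange that removes kinase activity (CDK6-K43M). Chromatin was precipitated with an anti-HA antibody after crosslinking with DSG and formaldehyde, with 2 libraries per variant, each with its own peak list. The 2 Input libraries were not analysed here. No list from cells without an HA tag was used here, and the labels do not say whether replicate numbers stand for separate cultures or days. The comparison asks whether the CDK6 protein occupies these genes and whether occupancy differs without kinase activity.

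The lists held 35189 and 34729 peaks for CDK6-WT replicates 1 and 2, and 39797 and 37304 peaks for CDK6-K43M replicates 1 and 2. Read totals are not given in them. Relative to CDK6-WT replicate 1, the recovered depth was 1.041 in CDK6-WT replicate 2, 1.194 in CDK6-K43M replicate 1 and 0.949 in CDK6-K43M replicate 2. Over all genes the strongest promoter peak had a median of 30 and 37 reads at its summit in replicate 1 of CDK6-WT and CDK6-K43M, and 19 and 16 in replicate 2. The libraries of replicate 2 therefore gave weaker promoter peaks in general. Of 8 markers of pre/pro-B cells, 7 were occupied in each replicate 1 library and 8 in each replicate 2 library (Rag1 in replicate 2 only). Of 8 markers of T, myeloid and erythroid cells, 1 (Lyz2) had a peak in 3 of the 4 lists and 7 had none.

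The DNA just upstream of histone genes is compact and holds the elements that give the family its joint control. The stretches below were taken from the mouse genome (mm10) and are read 5′ to 3′ along the gene, and capitals mark every match to the motifs searched. These include CCAAT (also its reverse complement ATTGG), the binding sequence of NF-Y, and the TATA box (TATAAA). They also include the octamer of H2B promoters (ATTTGCAT), the H1 box (AAACACA) and the core of site II of H4 promoters (GGTCCG). The E2F (TTTNGCGC), ETS (CCGGAAGT) and SP1 (GGGGCGGGG) sequences were searched as well and have no match in the stretches shown. Hist1h1b (chr13:21780626-21780785, minus strand) and Hist1h1a (chr13:23763506-23763665, plus strand) are shown because their peaks ranked between 2 and 7 in the replicate 2 lists, although Hist1h1b stood at percentile 4.1 and 7.0 in replicate 1. Hist1h4a (chr13:23761250-23761409, minus strand) had the highest mean percentile among H4 genes. Hist1h2ae/Hist1h2bg (chr13:23571221-23571395, plus strand) is the whole stretch between the starts of a divergent pair of an H2A and an H2B gene, a layout typical of the family. Hist1h2bq/Hist1h2ao (chr13:21810200-21810366, minus strand) is the same kind of stretch for a pair without any peak. H2afz (chr3:137864327-137864486, plus strand) is shown for contrast.
Hist1h1b: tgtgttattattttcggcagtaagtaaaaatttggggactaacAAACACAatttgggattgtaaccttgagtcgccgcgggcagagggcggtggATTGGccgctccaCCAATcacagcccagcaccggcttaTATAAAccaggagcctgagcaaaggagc
Hist1h1a: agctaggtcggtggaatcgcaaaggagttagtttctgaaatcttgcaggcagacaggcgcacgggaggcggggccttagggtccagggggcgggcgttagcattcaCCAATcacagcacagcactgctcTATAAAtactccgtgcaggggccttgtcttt
Hist1h4a: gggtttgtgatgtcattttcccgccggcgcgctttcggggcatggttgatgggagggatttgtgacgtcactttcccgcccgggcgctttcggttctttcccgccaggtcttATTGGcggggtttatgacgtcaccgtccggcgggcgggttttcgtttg
Hist1h2ae/Hist1h2bg: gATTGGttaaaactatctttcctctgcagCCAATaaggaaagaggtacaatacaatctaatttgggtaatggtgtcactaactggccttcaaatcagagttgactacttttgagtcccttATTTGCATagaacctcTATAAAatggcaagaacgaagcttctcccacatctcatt
Hist1h2bq/Hist1h2ao: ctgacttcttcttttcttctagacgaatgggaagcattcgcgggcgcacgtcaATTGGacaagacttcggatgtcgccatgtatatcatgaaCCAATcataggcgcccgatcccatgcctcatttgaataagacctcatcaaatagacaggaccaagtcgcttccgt
H2afz: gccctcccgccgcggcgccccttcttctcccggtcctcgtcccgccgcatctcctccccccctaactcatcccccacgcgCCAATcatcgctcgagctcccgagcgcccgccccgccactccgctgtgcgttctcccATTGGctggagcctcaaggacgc

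Histone genes were occupied in all 4 libraries more often than protein-coding genes at large. A gene was counted as occupied when a peak overlapped 500 bp to either side of any of its transcript starts. Of the 67 genes, 45 were occupied in CDK6-WT replicate 1 (67.2%, against 46.0% of all protein-coding genes) and 53 in CDK6-WT replicate 2 (79.1% against 38.9%). In CDK6-K43M the numbers were 43 in replicate 1 (64.2% against 47.2%) and 55 in replicate 2 (82.1% against 37.9%). Binding by both variants, which the study takes as 3 or more occupied libraries of the 4, was seen at 45 genes (67.2% against 40.4%). All 4 libraries were occupied at 40 genes (59.7% against 32.3%). These numbers depended on the limit set on peaks. With a minimum −log10 q of 10 they were 29 (43.3% against 16.5%) and 22 (32.8% against 7.76%), and among the 10000 strongest peaks of each list 21 (31.3% against 12.3%) and 13 (19.4% against 5.53%). Many of these genes share a peak, since their windows form 54 separate promoter units. Counted in units, 38 of 54 were occupied in 3 or more libraries and 34 in all 4.

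The number of occupied histone genes did not separate the variants. It was 49 ± 5.66 (SD, n = 2) in CDK6-WT and 49 ± 8.49 (SD, n = 2) in CDK6-K43M, a difference of 0 (exact two-sided permutation test over 6 assignments, p = 1). The smallest p that 2 libraries against 2 allow is 0.333. No histone gene was occupied with CDK6-WT alone, in both libraries (0.0545% of all genes), and none showed the opposite pattern (0.173% of all genes). Peak strength was expressed as the percentile of the −log10 q within a list, with 100 for the strongest peak of the list and 0 for a gene without a peak. The mean percentile over the 67 genes was 54.8 ± 20.5 in CDK6-WT and 58.8 ± 21.5 in CDK6-K43M (SD, n = 2 each), a difference of 3.95 with an exact two-sided permutation p = 0.667. Within a replicate number the difference was 3.23 in replicate 1 and 4.66 in replicate 2, and with the replicate number as a block the exact permutation p was 0.5, the smallest that 2 pairs allow.

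Hist1h3d, Hist1h4a, Hist1h3a, Hist2h2ab, Hist2h2ac and Hist2h2be had a higher percentile in both CDK6-K43M than in both CDK6-WT lists (6 of 67, 8.96%, against 2.86% of all genes). They were named after their values were seen, and 2 pairs among them share one peak each. No histone gene was higher in both CDK6-WT lists (1.33% of all genes). The margin was small for most of the 6. Hist2h2ac and Hist2h2be, a divergent H2A and H2B pair, stood at 70.0 and 62.2 in CDK6-WT replicates 1 and 2 and at 70.2 and 90.7 in CDK6-K43M, so that the lower CDK6-K43M value exceeded the higher CDK6-WT value by less than 1 percentile.

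The histone genes differed far more between the replicate numbers than between the variants. The mean percentile was 40.4 in CDK6-WT and 43.6 in CDK6-K43M in replicate 1, and 69.3 and 74.0 in replicate 2. Over all protein-coding genes the order was the opposite, with 33.2 and 35.0 in replicate 1 and 21.6 and 21.1 in replicate 2. The percentile was higher in both replicate 2 than in both replicate 1 lists at 39 histone genes (58.2%, against 4.59% of all genes), and higher in both replicate 1 lists at 6 (8.96% against 34.5%). Occupancy in replicate 2 of both variants without any in replicate 1 was found at 10 histone genes (14.9% against 1.08%), and the reverse at none (against 5.58%). What the replicate number marks is not stated in the labels, and the cause of the difference was not tested.

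**Figure D1:**
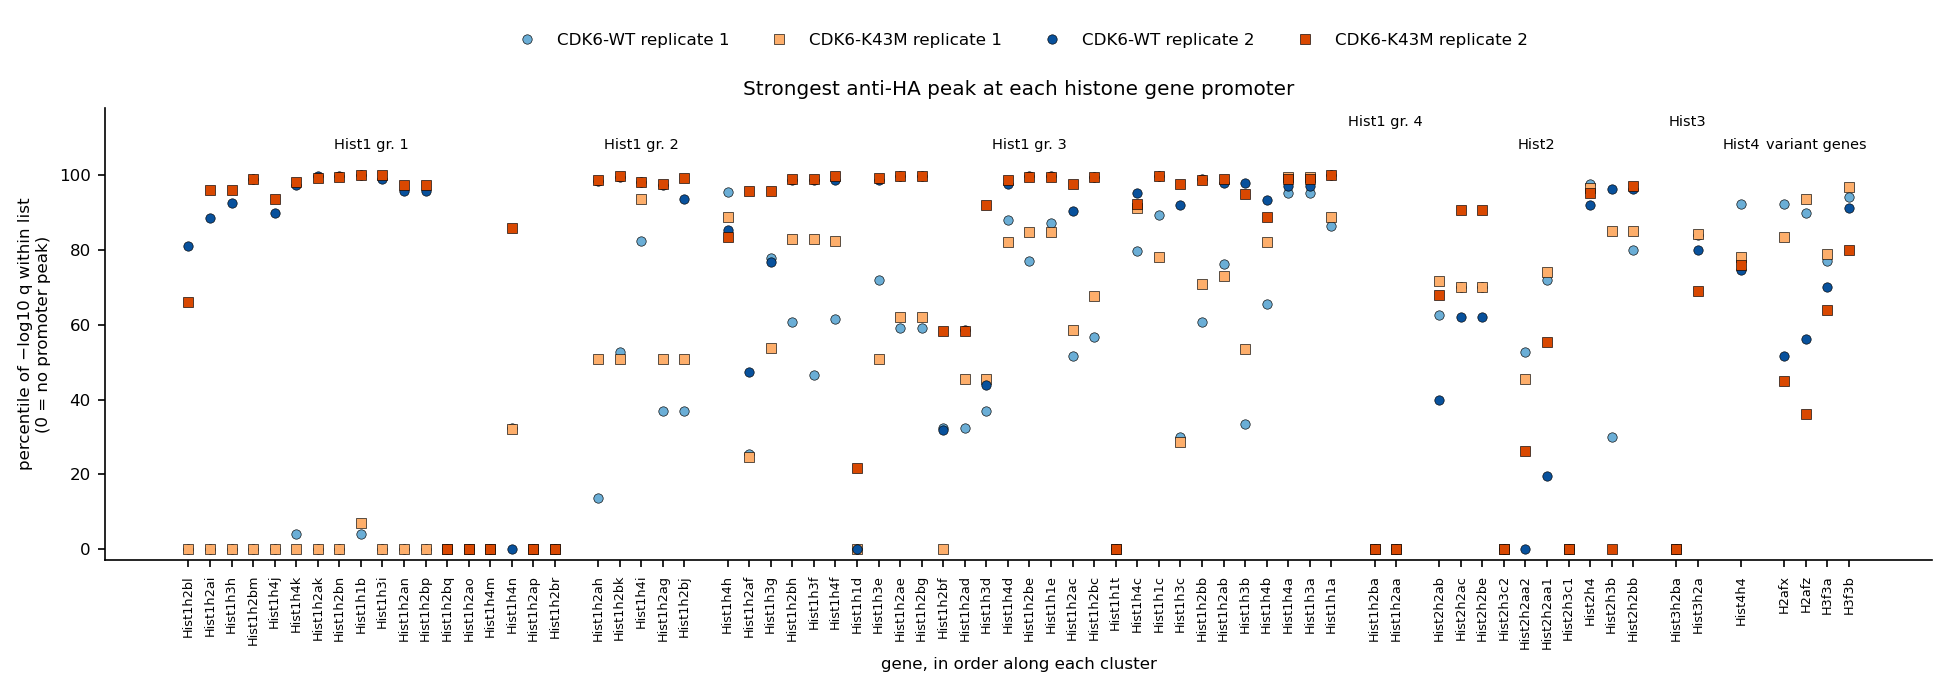
Percentile of the −log10 q of the strongest promoter peak (y axis, 0 where no peak was called) for each of the 67 histone genes in chromosomal order within its cluster, followed by 4 histone variant genes (x axis). Circles are CDK6-WT, squares are CDK6-K43M, light symbols are replicate 1 and dark symbols are replicate 2. Dark symbols lie above light ones along the Hist1 genes (38 of 54 with both replicate 2 values above both replicate 1 values), but not at the variant genes.

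Histone genes were among the strongest peaks of the replicate 2 lists. In CDK6-WT replicate 2, 12 histone genes had a peak at or above percentile 99 (17.9%, against 0.263% of all genes), and in CDK6-K43M replicate 2 there were 15 (22.4% against 0.309%). In replicate 1 there were 0 in CDK6-WT (1.53% of all genes) and 2 in CDK6-K43M (2.99% against 1.76%), Hist1h3a and Hist1h4a. Genes that share a peak were counted separately here, and as peaks they made up 10 of the 349 at or above this percentile in CDK6-WT replicate 2 and 12 of 373 in CDK6-K43M replicate 2. The local background that the peak caller used is given for all histone genes with a peak, not only those at or above percentile 99. In CDK6-WT and CDK6-K43M in turn, its median was 1.55 and 1.60 reads in replicate 1 and 1.77 and 1.69 in replicate 2. These medians lay not far above the lowest background of each list, which limits how far they can differ. The part of background in the replicate difference was not tested.

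The linker histone genes, 4 of which had a peak in every list, had a median of 36.5 and 40 reads at the summit in replicate 1 and 89 and 81 in replicate 2 (CDK6-WT and CDK6-K43M in turn). The replicate 2 medians were above those of every core histone type. Hist1h1a had 41 reads at the summit in CDK6-WT replicate 1 (95% interval 29.4 to 55.6), 42 in CDK6-K43M replicate 1 (30.3 to 56.8), 112 in CDK6-WT replicate 2 (92.2 to 134.8) and 97 in CDK6-K43M replicate 2 (78.7 to 118.3). These exact Poisson intervals cover counting error only. The replicate 2 intervals lay above both replicate 1 intervals, and the peak ranked 3 of 34729 in CDK6-WT replicate 2 and 7 of 37304 in CDK6-K43M replicate 2. Hist1h1e had 32 and 40 reads in replicate 1 and 67 and 60 in replicate 2 (CDK6-WT and CDK6-K43M in turn). Hist1h1c, added after its values were seen, had 43 and 40 reads in replicate 1 and 70 and 81 in replicate 2. The groups of values did not overlap at any of these 3 genes. The remaining linker genes were Hist1h1b, described with its cluster, Hist1h1t, the testis-specific H1 gene, without a peak, and Hist1h1d.

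Hist1h1d shows how the annotated start decides a call. Its window held a peak in CDK6-K43M replicate 2 only, with 12 reads 499 bp upstream of the annotated first start. RefSeq places the start of this gene 1770 bp further downstream, and a window around that start held a peak in all 4 lists. Its percentile was then 75.2 and 76.7 in replicate 1 and 99.99 and 100 in replicate 2 (CDK6-WT and CDK6-K43M in turn). With RefSeq starts, an alternative chosen after seeing the data, 46 of the 67 genes were occupied in 3 or more libraries.

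The H2A and H2B genes, many of them in divergent pairs, were occupied at lower strength in replicate 1. Of 18 H2A genes 12 had a peak in each replicate 1 list, and 14 and 15 in the replicate 2 lists of CDK6-WT and CDK6-K43M. Of 18 H2B genes 10 and 9 had one in replicate 1, and 14 in each replicate 2 list. The median number of reads at the summit of H2B genes with a peak was 20 and 29 in replicate 1 and 51.5 and 50.5 in replicate 2. Hist1h2ab, the H2A gene with the highest mean percentile, had 34 and 29 reads in replicate 1 and 46 and 51 in replicate 2. Hist1h2ae shares a peak with the H2B gene Hist1h2bg and had 22 and 24 reads in replicate 1 and 77 in both replicate 2 libraries. Hist1h2be, which led the H2B genes, had 26 and 40 reads in replicate 1 and 67 and 60 in replicate 2. Its annotated start lies within the annotated span of the linker gene Hist1h1e, and every one of these peaks overlaps that span. The last 3 of these values are also those of Hist1h1e. Occupancy of Hist1h2be can therefore not be told apart from that of Hist1h1e.

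For H3, 8 of 12 genes had a peak in each replicate 1 list, and 10 and 9 in the replicate 2 lists. Hist1h3f, which shares its peak with the H2B gene Hist1h2bh in 3 of the 4 lists, stood at percentile 46.5 and 83.0 in replicate 1 and at 98.6 and 98.8 in replicate 2. Hist1h3a shares one peak with the H4 gene Hist1h4a, whose summit lay 236 to 299 bp upstream of the Hist1h4a start. This peak had 42 and 76 reads in replicate 1 and 51 and 53 in replicate 2, and at percentiles of 95.1 to 99.6 it had the highest mean of the family. At this peak the replicates overlapped.

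With genes without a peak counted as 0, the H4 genes had the highest mean percentile of the histone types in every list. It was 61.1 and 63.6 in replicate 1 and 78.4 and 85.3 in replicate 2. Among genes with a peak, the median percentile of H4 genes was 82.3 and 85.5 in replicate 1 and 95.1 and 94.4 in replicate 2. For H1 genes this median was 86.8 and 81.5 in replicate 1 and 99.9 and 99.8 in replicate 2. The median number of reads at the summit of H4 genes was 33 and 45 in replicate 1 and 36 and 32 in replicate 2. Of the 13 H4 genes, 11 and 10 were occupied in replicate 1 and 11 and 12 in replicate 2. Hist2h4 had 49 and 55 reads in replicate 1 and 32 and 34 in replicate 2. All 4 of its percentiles lay between 91.9 and 97.7. Both replicate 2 percentiles were above both in replicate 1 at 7 H4 genes and below them at 3 (Hist1h4h, Hist2h4 and Hist4h4).

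**Figure D2:**
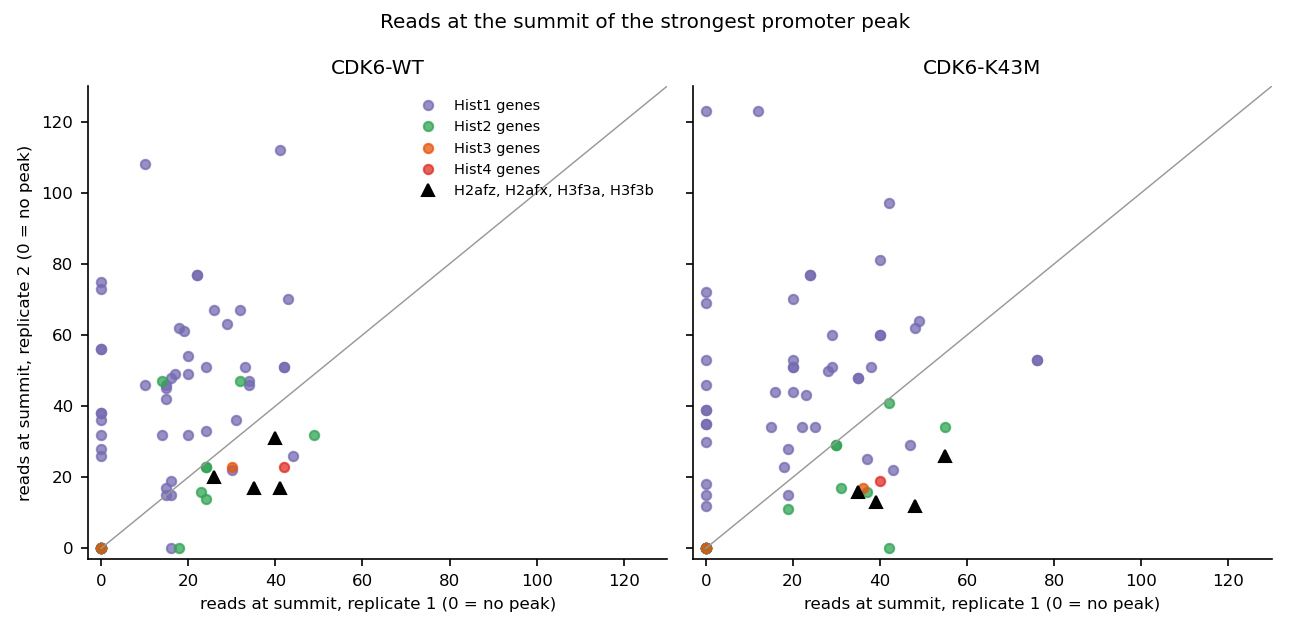
Reads at the summit of the strongest promoter peak in replicate 1 (x axis) and replicate 2 (y axis) for CDK6-WT (left) and CDK6-K43M (right), with 0 for a gene without a peak and a line of equality. Points are histone genes coloured by cluster and triangles are 4 histone variant genes. Most Hist1 genes lie above the line, with a median ratio of replicate 2 to replicate 1 of 2.15 in CDK6-WT and 1.55 in CDK6-K43M, while the triangles lie below it.

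The replicate difference followed the chromosomal cluster. Of the Hist1 genes with a peak in both replicates, the 95% interval of the reads in replicate 2 lay wholly above that of replicate 1 at 18 of 34 in CDK6-WT and at 12 of 33 in CDK6-K43M, and wholly below it at none. Over all protein-coding genes this held for 1.16% and 0.73%, and the reverse for 22.48% and 56.93%. At the Hist2, Hist3 and Hist4 genes the median ratio of replicate 2 to replicate 1 was 0.767 in CDK6-WT and 0.579 in CDK6-K43M, nearer to the 0.586 and 0.406 of all genes. Counts were not rescaled for depth, which differed by less than these ratios.

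The first group of Hist1 genes showed the pattern in its sharpest form. These 18 genes (Hist1h2bl to Hist1h2br, chromosome 13, 21713763 to 21839530 with a margin of 2 kb) lie apart from the next Hist1 genes by over 100 kb. In replicate 1 only 3 of 18 were occupied in CDK6-WT and 2 in CDK6-K43M, and in replicate 2 it was 12 and 13. All 10 histone genes occupied in replicate 2 only belonged to this group. Peaks covered 1.21 and 1.20 kb of its 125.8 kb in replicate 1, and 21.38 and 23.35 kb in replicate 2. The highest number of reads at any summit was 16 and 20 in replicate 1, and 108 and 123 in replicate 2.

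Hist1h1b, named after its values were seen, carried the highest summits of this first group in replicate 2. In the third group the highest summits had 112 and 127 reads in replicate 2. This linker histone gene (chromosome 13, 21779883 to 21780625, minus strand) had 10 reads at its summit in CDK6-WT replicate 1 (95% interval 4.8 to 18.4) and 12 in CDK6-K43M replicate 1 (6.2 to 21.0). In replicate 2 it had 108 (88.6 to 130.4) and 123 (102.2 to 146.8). The strongest peak in its window thus changed from rank 33565 of 35189 and 36691 of 39797 to rank 7 of 34729 and 2 of 37304. Its width went from 216 and 324 bp to 2909 and 5034 bp. Each replicate 1 list held another peak beside the window, of 13 reads in CDK6-WT (percentile 23.26) and 20 in CDK6-K43M (percentile 50.76). Both lie within the span of the replicate 2 peak of the same variant. The changes in rank and width thus compare part of that stretch with the whole of it. The widest of these peaks (chromosome 13, 21778537 to 21783570, CDK6-K43M replicate 2) also covered the H3 gene Hist1h3i.

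Hist1h2bn and Hist1h3i had the highest mean percentile among the 10 genes occupied in replicate 2 only. Hist1h2bn, an H2B gene, had no peak in replicate 1 and 75 and 72 reads in replicate 2, at percentiles 99.8 and 99.6. Hist1h3i had no peak in replicate 1 and 56 reads in CDK6-WT replicate 2, and in CDK6-K43M replicate 2 it shared the peak of Hist1h1b. The deposited lists hold called peaks only, so that a gene without a peak may still have had reads below the threshold.

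**Figure D3:**
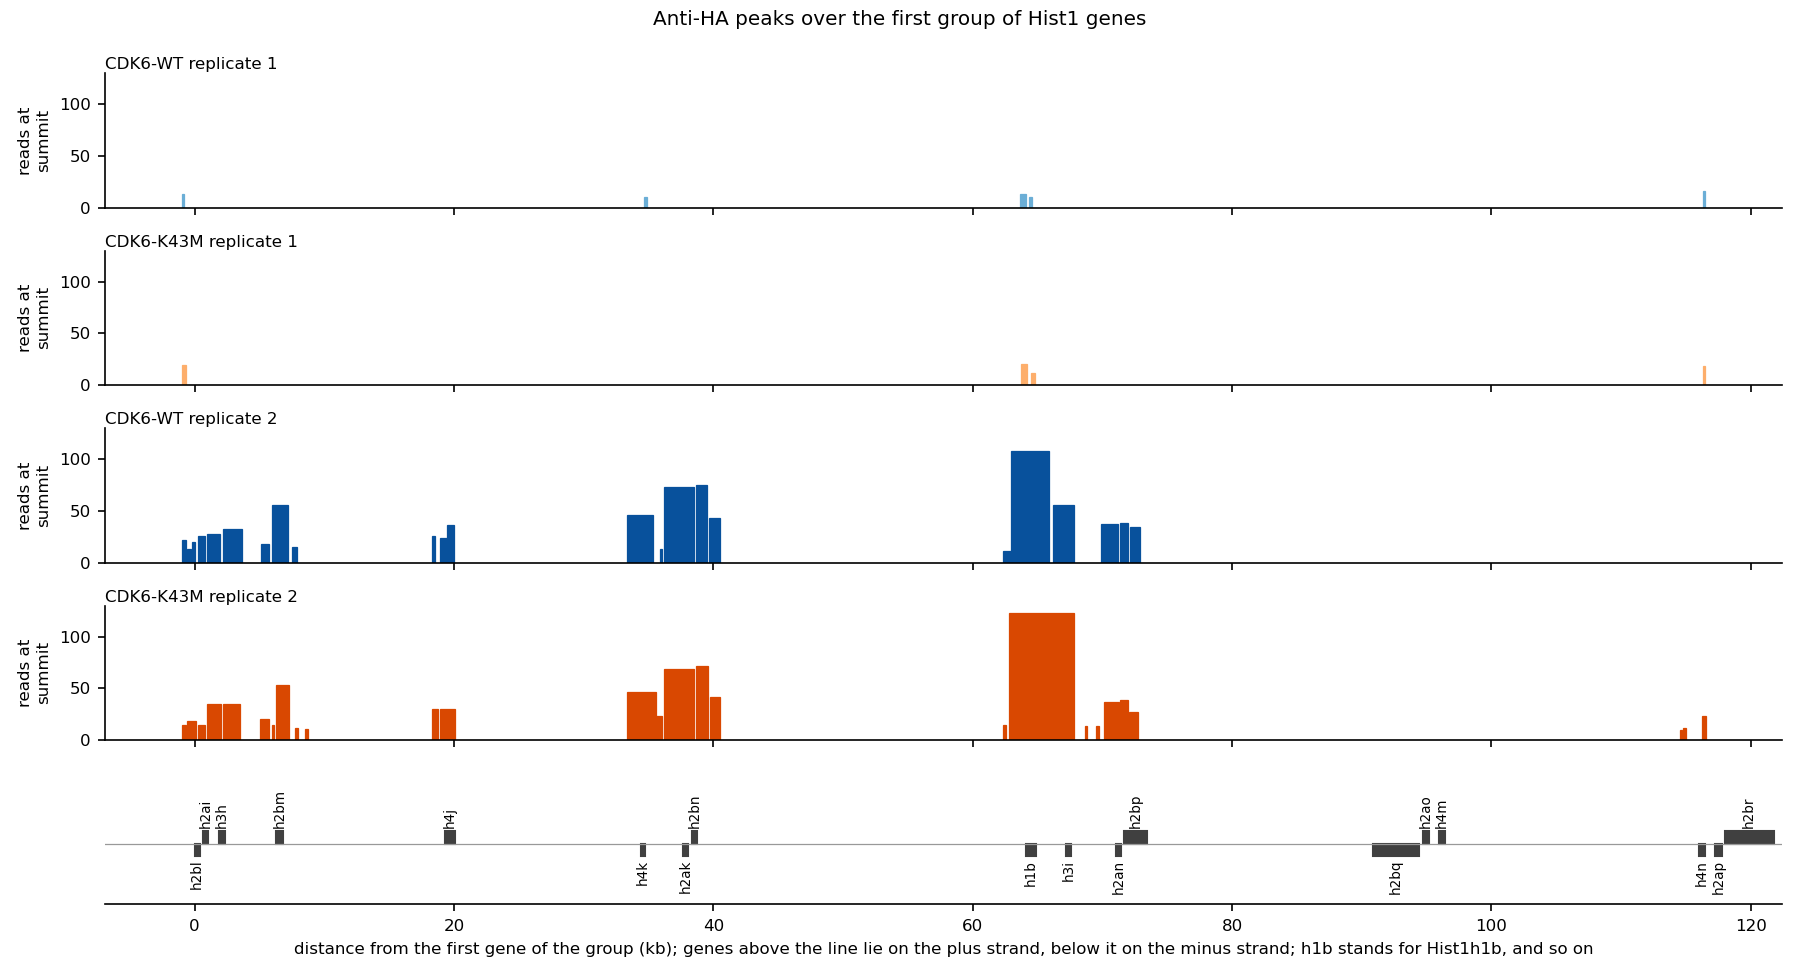
Peaks of the 4 lists over the first group of Hist1 genes, as distance in kb from its first gene (x axis), with each peak drawn over its full width at the height of the reads at its summit (y axis, same scale in all tracks). The lowest track shows the 18 genes by strand. Peaks in replicate 1 are few and have at most 20 reads, whereas those in replicate 2 cover most genes up to 75 kb from the first gene and reach 108 and 123 reads.

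The other Hist1 groups were occupied in every library and were also stronger in replicate 2. All 5 genes of the second group (22033164 to 22045676) had a peak in each list, and their mean percentile was 44.4 and 59.3 in replicate 1 and 97.4 and 98.7 in replicate 2. In the third group (23529050 to 23766406, 29 genes), 27 and 26 genes were occupied in replicate 1 and 27 and 28 in replicate 2. Their mean percentile was 59.7 and 62.9 in replicate 1 and 82.6 and 88.5 in replicate 2. Peaks covered 21.48 and 27.04 kb of its 237.4 kb in replicate 1, and 48.03 and 51.60 kb in replicate 2. The fourth group, Hist1h2ba and Hist1h2aa, encodes testis-specific histones and had no peak.

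Hist2, Hist3 and Hist4 did not share the replicate 2 pattern. Of 10 Hist2 genes, 1 (Hist2h2bb) was higher in both replicate 2 lists and 3 (Hist2h2aa1, Hist2h2aa2 and Hist2h4) were higher in both replicate 1 lists. Hist2h2bb, an H2B gene, had 32 and 42 reads in replicate 1 and 47 and 41 in replicate 2, which overlap. Hist2h2aa1 had 24 and 37 reads in replicate 1 and 14 and 16 in replicate 2, and Hist2h2aa2 had 18 and 19 in replicate 1, no peak in CDK6-WT replicate 2 and 11 in CDK6-K43M replicate 2. Hist2h2ab had 23 and 31 reads in replicate 1 and 16 and 17 in replicate 2. Hist2h2ac and Hist2h2be shared a peak of 24 and 30 reads in replicate 1 and 23 and 29 in replicate 2. Hist2h3b, whose window reached the edge of the Hist2h2bb peak in 2 lists, had 14 reads in CDK6-WT replicate 1, 42 in CDK6-K43M replicate 1, 47 in CDK6-WT replicate 2 and no peak in CDK6-K43M replicate 2.

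Hist3h2a and Hist4h4, an H2A and an H4 gene, had more reads in replicate 1. Hist3h2a had 30 and 36 reads in replicate 1 and 23 and 17 in replicate 2, and its neighbour Hist3h2ba had no peak. Hist4h4 had 42 and 40 reads in replicate 1 and 23 and 19 in replicate 2, values that do not overlap. Peaks covered 1.32 to 1.80 kb around the Hist3 genes and 1.36 to 1.80 kb around Hist4h4, with no separation of the replicates.

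All 4 variant histone genes had a peak in every list and a higher percentile in both replicate 1 than in both replicate 2 lists. H2afz, which encodes H2A.Z, had 35 reads in CDK6-WT replicate 1 (95% interval 24.4 to 48.7), 48 in CDK6-K43M replicate 1 (35.4 to 63.6), 17 in CDK6-WT replicate 2 (9.9 to 27.2) and 12 in CDK6-K43M replicate 2 (6.2 to 21.0). H2afx, the gene of the DNA damage variant H2A.X, had 41 and 39 reads in replicate 1 and 17 and 13 in replicate 2. The H3.3 genes H3f3a and H3f3b had 26 and 40 reads in CDK6-WT replicate 1, 35 and 55 in CDK6-K43M replicate 1, 20 and 31 in CDK6-WT replicate 2 and 16 and 26 in CDK6-K43M replicate 2. The H3f3b summits lay 3594 to 3906 bp downstream of its first transcript start, so that these peaks were called at another of its starts. A higher percentile in both replicate 1 lists was found at 34.5% of all genes and at 1 of 54 Hist1 genes. Of 7 further histone variant genes, 5 were higher in both replicate 1 lists and none in both replicate 2 lists. H2afv, H2afy, Cenpa and H2afj had a peak in every list, H1f0 in replicate 1 only, and H1fx and H2afy2 in none.

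The peaks over histone genes did not only mark the start. In replicate 1 the summit of the distinct strongest peaks lay within 100 bp of the nearest histone gene start in 27 of 41 peaks in CDK6-WT (65.9%) and 21 of 34 in CDK6-K43M (61.8%). In replicate 2 it was 15 of 45 (33.3%) and 12 of 45 (26.7%). Summits at least 300 bp downstream of the start made up 17.1% and 11.8% in replicate 1, and 48.9% and 51.1% in replicate 2. Over all protein-coding genes they made up 4.6% and 4.5% in replicate 1 and 8.5% and 10.1% in replicate 2. At Hist1 genes in replicate 2 they were 22 of 38 distinct peaks in CDK6-WT and 21 of 37 in CDK6-K43M. At Hist2, Hist3 and Hist4 genes they were 0 of 7 and 2 of 8. Over all protein-coding genes the shares within 100 bp were 68.9% and 69.5% in replicate 1 and 59.8% and 58.9% in replicate 2. The median width of the strongest peak at histone genes was 402 and 452 bp in replicate 1 and 1102 and 1093 bp in replicate 2, against 511 and 604 bp and 356 and 341 bp over all genes. Restricting the calls to peaks with their summit inside the window left 29 genes with both replicate 2 values above both replicate 1 values.

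Peaks therefore covered a large part of these short genes. On average 25.9% and 34.1% of the length of a histone gene lay in peaks in replicate 1, and 53.5% and 57.2% in replicate 2. For the 737 protein-coding genes of at most 1 kb, which include 48 histone genes, the averages were 4.65% and 6.04% in replicate 1 and 6.26% and 6.58% in replicate 2.

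Coverage was not even along the gene. It was high at the start, lower inside the gene and high again further downstream. At the start itself, 55.2% and 52.2% of the histone genes lay in a peak in replicate 1 and 71.6% and 70.1% in replicate 2. At 250 bp downstream it was 16.4% and 20.9% in replicate 1 and 35.8% and 44.8% in replicate 2. At 500 bp downstream, close to the median length of a histone gene (539 bp), it was 34.3% and 47.8% in replicate 1 and 73.1% and 74.6% in replicate 2. The share of genes in which the 50-base word centred at the same place occurs once in the genome was 88.1% at the start, 22.4% at 250 bp and 85.1% at 500 bp. Multimapping reads had been removed by the authors, so that the dip coincides with sequence that is shared among histone genes. Its part in the dip was not tested.

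**Figure D4:**
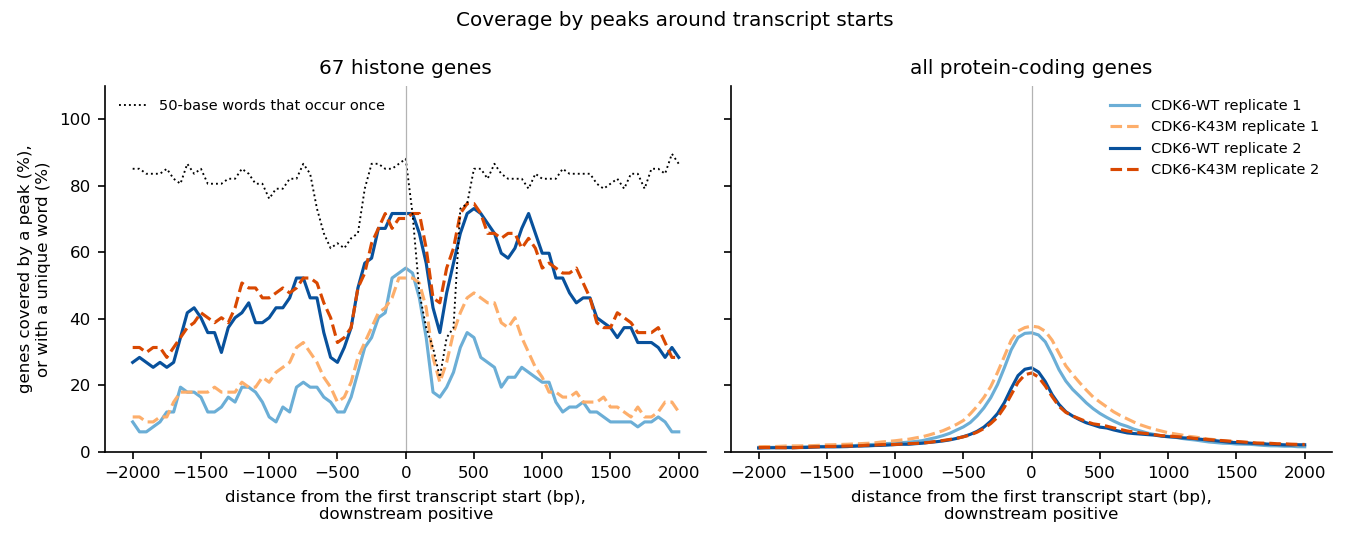
Share of genes covered by a peak (y axis, %) against the distance from the first transcript start (x axis, bp) for 67 histone genes (left) and all protein-coding genes (right). Solid lines are CDK6-WT, dashed lines are CDK6-K43M, light colours are replicate 1 and dark colours are replicate 2, and the dotted line is the share of histone genes whose 50-base word at that place occurs once in the genome. At 250 bp the histone curves and the dotted line both have their minimum inside the gene, and the replicate 2 curves lie above the replicate 1 curves on the left but below them at the start on the right.

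The 11 histone genes without a peak in any list fall into 2 kinds by sequence. Hist1h2bq, Hist1h2ao, Hist1h2ap and Hist1h2br had no 50-base word in their windows that occurs once in the genome, and Hist1h4m (5.78%), Hist2h3c1 and Hist2h3c2 (5.25% each) had almost none. The stretch of 167 bases between Hist1h2bq and Hist1h2ao printed above occurs 2 times on chromosome 13 without a mismatch, the second time between Hist1h2ap and Hist1h2br. At these 7 genes the lists cannot tell an unoccupied gene from one whose reads were removed. The other 4, Hist3h2ba (85.8%), Hist1h2ba (86.3%), Hist1h2aa (99.2%) and Hist1h1t (100%), had mostly unique windows. Hist1h4n had 4.83% unique words and still a peak in 3 lists, of 16 and 18 reads in replicate 1 and 23 reads in CDK6-K43M replicate 2. Without the 13 genes under 50% unique words, an alternative chosen after seeing the data, 40 of 54 genes were occupied in 3 or more libraries and 36 of 54 had both replicate 2 values above both replicate 1 values.

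**Figure D5:**
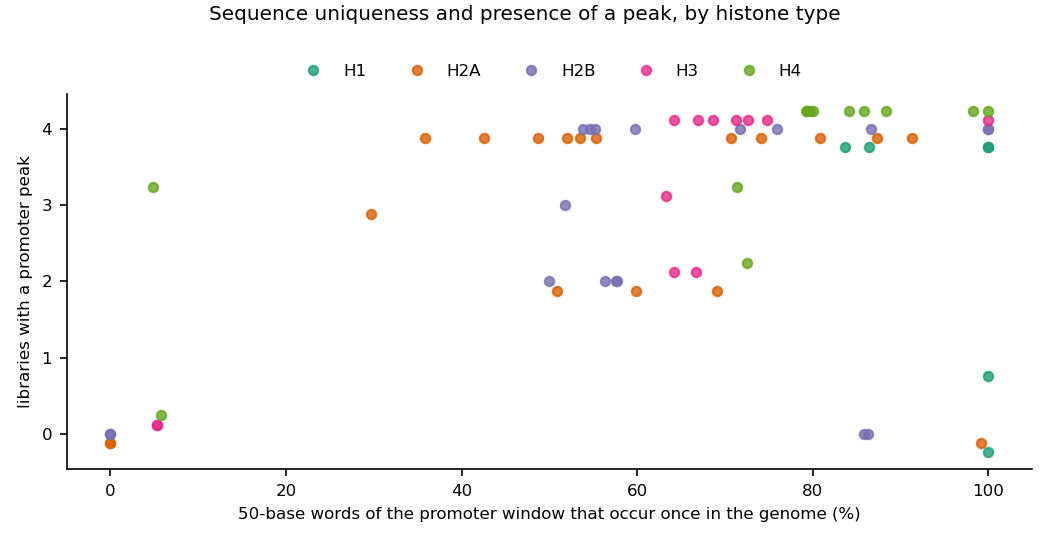
Number of libraries with a promoter peak (y axis, 0 to 4, points offset slightly by type) against the share of 50-base words of the promoter window that occur once in the genome (x axis, %), for 67 histone genes coloured by histone type. Genes without any peak lie at both ends of the x axis, 7 of them under 6% and 4 of them above 85%.

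Other genes of the Hist1 region were occupied less often than its histone genes, most of them being receptor genes without a peak. Between the first and the last Hist1 gene lie 49 other protein-coding genes, of which 36 are vomeronasal receptor genes, which serve in olfactory neurons. Of these 36, 1 (Vmn1r189) had a promoter peak, in CDK6-K43M replicate 2 only. Of the other 13, 4 and 6 were occupied in replicate 1 (46.0% and 47.2% of all genes) and 7 and 8 in replicate 2 (38.9% and 37.9% of all genes). Of these 13, 3 had a higher percentile in both replicate 2 than in both replicate 1 lists (4.59% of all genes), namely Btn1a1, Prss16 and Trim38, and none had the opposite order (34.5% of all genes). Whether the replicate difference extends over the region was not tested. These genes were named after their values were seen.

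Genes whose products act on the histone genes and their mRNAs were mostly occupied, at higher percentiles in replicate 1. The shares of all protein-coding genes were 46.0% and 47.2% occupied in replicate 1, 38.9% and 37.9% in replicate 2, and 34.5% higher in both replicate 1 lists. Of 5 genes of the histone locus body and its transcription factors, 4 had a peak in every list, and these 4 were higher in both replicate 1 lists. Npat had 39 and 42 reads in replicate 1 and 26 and 21 in replicate 2, and Hinfp, which binds site II of H4 genes, had 39 and 63 reads in replicate 1 and 16 in both replicate 2 libraries. Casp8ap2 and Pou2f1 were the others with a peak, and Gon4l had none. The strongest Pou2f1 peak lay near its first transcript start in replicate 1. In replicate 2 it lay 67502 and 67569 bp downstream, at another start, so that the replicates compare different starts of this gene. Of 10 genes of 3′ end processing and turnover, 10 were occupied in each replicate 1 library and 8 and 7 in replicate 2, and 9 were higher in both replicate 1 lists. Slbp, the stem-loop binding protein, had 44 and 56 reads in replicate 1 and 23 and 19 in replicate 2. Of 11 histone chaperone genes, 11 had a peak in replicate 1 and 10 and 9 in replicate 2, with 9 higher in both replicate 1 lists. None of these 26 genes was higher in both replicate 2 lists (4.59% of all genes).

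The promoters of the histone genes differed from others in their elements as well. A window from 250 bp before to 50 bp after the first start was searched on both strands. CCAAT was present in 56 of 67 histone promoters (83.6%, against 39.01% of 21938 promoters), in 18 of 18 H2A, 18 of 18 H2B and 11 of 12 H3 promoters but in 4 of 13 H4 promoters. The TATA box was present in 37 (55.2% against 12.65%). The octamer was found in 7 H2A and 8 H2B promoters and in no H1, H3 or H4 promoter (22.4% against 1.57%). The H1 box was present in 4 of 6 H1 promoters and in 9 of all 67 (13.4% against 6.40%), and the site II core in 12 of 13 H4 promoters and 15 in all (22.4% against 9.60%). Hist1h4a is the H4 promoter without it.

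The E2F sequence (TTTNGCGC) was present in 14 histone promoters (20.9% against 1.66%), 7 of H2A and 7 of H2B genes. Of these 14, 7 were occupied in 3 or more libraries, compared with 38 of the 53 without it. The 14 include Hist1h2ao, Hist1h2ap, Hist1h2bq and Hist1h2br, at which occupancy could not be read. Without the genes under 50% unique words the numbers were 6 of 8 and 34 of 46. The ETS sequence (CCGGAAGT) was in none of the 67 (against 4.70%), and the SP1 sequence (GGGGCGGGG) in 4 (6.0% against 14.49%). The presence of CCAAT did not go along with stronger occupancy, with a mean percentile of 39.7 and 42.5 in replicate 1 and 69.8 and 73.4 in replicate 2 for the 56 genes with it, and 43.6 and 49.1 in replicate 1 and 67.0 and 76.7 in replicate 2 for the 11 genes without. Of the 15 genes with the site II core, 12 were H4 genes. Over these 15 the mean percentile was 53.7 and 59.5 in replicate 1 and 81.3 and 87.2 in replicate 2. For the 52 others it was 36.5 and 39.0 in replicate 1 and 65.9 and 70.2 in replicate 2. All these means count genes whose occupancy could not be read as 0. Without the genes under 50% unique words, 11 of 13 with the core and 29 of 41 without it were occupied in 3 or more libraries. For CCAAT the numbers were 33 of 45 and 7 of 9. These are descriptions over genes that partly share peaks and were not tested. The median GC content of the histone promoters was 45.3%, against 55% of all promoters.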

How the data were processed

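Anti-HA ChIP-seq was carried out with 2 libraries per CDK6 variant. According to the study, the authors checked reads with FastQC 0.11.5, trimmed them with Trimmomatic 0.36, mapped them to mm10 with bwa-mem 0.7.15, removed blacklisted regions with bedtools and multimapping or low-quality reads with SAMtools 1.3.1, and called peaks per library with MACS2 2.1.0 at default settings. Read length is not given in the sources used here. The deposited lists give each peak a score, a fold enrichment (ratio), the −log10 p-value, the −log10 q-value and the summit offset, from a −log10 q of 1.31 to 1.34 upward.

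The local background and the reads at each summit were solved from fold enrichment and −log10 p. In every list 100% of the peaks matched a whole number of reads within 0.001 (tested on simulated data). The background is on the scale to which the peak caller had brought the counts (a factor of 0.812 to 1, found in the same step). The lowest background, divided by this factor and by the smallest peak width, gave the relative depth. A gene was given its strongest peak overlapping 500 bp to each side of any GENCODE vM21 transcript start, and peaks were ranked by −log10 q within their list. Windows, sequences and unique 50-base words were read from GRCm38 (mm10) with Python 3.11.15, numpy 2.4.6, pandas 2.3.3, scipy 1.17.1 and biopython 1.88. RefSeq starts were matched for 67 of 67 histone genes.

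Libraries were grouped by variant and number as titled. Variants were compared by an exact two-sided permutation of the 4 libraries (6 assignments), and other counts are set beside all protein-coding genes. Named genes are the 2 of each histone type with the highest mean percentile, members of Hist2, Hist3 and Hist4 with a peak, genes occupied in one variant or replicate number only (the 2 highest), genes without a peak, and the genes of the lists. The members, lists and motifs were chosen with earlier results of these data known. Other windows, thresholds, summit calls, promoter units, left-out libraries and the replicate number as a block were tried as alternatives.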

Additional observations from a re-analysis of the deposited data

How the results depend on the processing

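The difference between the variants in the number of occupied histone genes (0) ranged from -1.5 to 1.5 over the other thresholds, windows and definitions, and from -6 to 6 when one library was left out. The difference in mean percentile (3.95) turned to -0.456 when the summit had to lie inside the window. It ranged from -11.2 to 19.1 when one library was left out, and was negative without CDK6-WT replicate 1 or CDK6-K43M replicate 2. Neither result passed its test under any setting, which 2 libraries against 2 do not allow. With the replicate number as a block, the differences were 0 and 3.95 with exact p = 1 and 0.5, the smallest p that 2 pairs allow. Libraries with the same number deviated together (r = 0.728 over 22028 genes, which are not independent), but nothing in the labels says what the number pairs.

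The number of histone genes with a peak in at least 3 lists was 45. With a minimum −log10 q of 10 it was 29, and 21 among the 10000 strongest peaks of each list, which use fewer peaks. Leaving out a library leaves 3 lists, and 40 to 42 genes had a peak in all 3, which is not the same measure. The number with a peak in all 4 lists was 40, and 22 and 13 under the same limits on peaks. Without a library it becomes the same count in all 3 remaining lists. The number with both replicate 2 percentiles above both in replicate 1 was 39 and stayed between 29 and 46 (40 to 46 without a library). The number occupied in replicate 2 only was 10, and it was 16 at a minimum of 10, 22 among the 10000 strongest peaks and 5 with the summit inside the window (10 to 12 without a library). The cause of that last change was not tested. Alternatives on these last counts, RefSeq starts and the limit on unique words were chosen after seeing the data. Only peaks past a −log10 q of about 1.3 are listed, so that weaker occupancy is not detectable here.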
